A study of Mus musculus with 3 samples.

Results

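The set described here holds 41 genes whose proteins bring a new secretory or membrane protein into the endoplasmic reticulum (ER), fold it there, and remove it when folding fails. The genes were listed by name and function, with earlier results of these data known. Of them 41 of 41 were found among the 31053 genes of the deposited count matrix. By role they fall into 6 groups. The sensor group has 3 genes, the stress sensors Ern1 and Atf6 and the transcription factor Xbp1. There are 12 chaperones and co-chaperones (among them Hspa5, Hsp90b1, Calr and Mzb1) and 5 disulfide and proline isomerases (Pdia3, Pdia4, Pdia6, P4hb, Ppib). The others are 9 translocon genes (the Sec61 subunits, Sec62, Sec63 and Ssr1 to Ssr4), 5 signal peptidase genes (Spcs1, Spcs2, Spcs3, Sec11a, Sec11c) and 7 degradation genes (Sel1l, Syvn1, Herpud1, Derl1, Derl2, Derl3, Edem1).

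The genes were followed in single-cell RNA of dendritic cells (DCs) isolated from the spleens of C57BL/6 mice. The hashtag antibodies that mark each sample name 6 samples: 2 from leukemia-bearing (AML) mice on panobinostat, 1 from wild-type (WT) mice on panobinostat, 2 from leukemia-bearing mice on vehicle and 1 from WT mice on vehicle. Panobinostat, an inhibitor of histone deacetylases, or vehicle was given for 2 days. The tags carry codes that the labels do not spell out. AML was read here as leukemia-bearing, LBH as panobinostat and D5W as vehicle, and every comparison of treatment or disease rests on that reading. In all groups, as far as the labels describe it, spleen cells passed a density gradient, a sort that kept GFP-negative cells and a magnetic depletion that leaves DCs, and the 6 samples went into 1 capture. The labels do not say whether each hashed sample is a separate animal or a pool. The spread behind every p-value below is therefore that of these hashed samples and may be technical. Where classes are compared, the hashed sample is a block, and the p-value rests on how far the class difference varies between samples.

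Proteins bound for secretion or for a membrane enter the ER through the Sec61 channel, lose their signal peptide to signal peptidase, and fold with the help of chaperones and of enzymes that form disulfide bonds. When unfolded protein builds up, the sensors Ire1α (encoded by Ern1), Atf6 and Perk start the unfolded protein response, in which Ire1α splices Xbp1 mRNA into the form that encodes an active transcription factor, and chaperone and degradation genes are transcribed. Plasmacytoid DCs (pDCs) carry a large ER and secrete type I interferon. Conventional DC1 (cDC1) take up dead cells and present their antigens on MHC class I, whose peptide loading uses calreticulin and Pdia3. Conventional DC2 (cDC2) present mainly to CD4 T cells, and mature DCs are cells of either conventional kind that have switched to migration and presentation. In mice, cDC1 are known for constant activity of the Ire1α and Xbp1 branch.

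The ER stress response element (ERSE), read by Atf6 and by spliced Xbp1 together with the CCAAT-binding factor NF-Y, was searched by its textbook consensus on both strands of the 300-base windows that RefSeq gives for gene starts of build GRCm38.p6 (250 bases before the start and 50 from it). A window was found for 32 of the 41 genes, 1 of them with 2 windows. ERSE was present in 9 of these 33 windows (27.3%), against 39 of all 32851 windows (0.119%). The 9 genes were Hspa5, Hsp90b1, Calr, Canx, Creld2, Dnajc3, Pdia6, Derl3 and Syvn1. The related ERSE-II was present for Dnajb11 and Herpud1 (6.06% of windows, against 0.0365% of all windows). Genes of this set may be among those from which both consensus sequences were first drawn. The shares therefore describe these windows and are no independent test. The core of the unfolded protein response element was in 0 of the 33 windows (0.676% of all windows), and the CCAAT box, which lies within ERSE and ERSE-II and so overlaps them, was in 72.7% (37.4% of all windows). The 5 stretches below are shown because their genes recur in the results that follow: Calr, Pdia6 and Creld2 were called higher with panobinostat in cDC1-like cells, Hsp90b1 was called higher with leukemia there, and Herpud1 shows ERSE-II. Each runs 5′ to 3′ on the strand of its gene, with the matched ERSE or ERSE-II in capitals, and a match on the other strand appears as its reverse complement.
Calr (chr8:84847055-84847113, minus strand): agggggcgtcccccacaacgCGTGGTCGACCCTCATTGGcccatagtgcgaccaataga
Pdia6 (chr12:17266471-17266529, plus strand): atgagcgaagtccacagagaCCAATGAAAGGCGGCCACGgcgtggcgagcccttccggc
Creld2 (chr15:88819500-88819558, plus strand): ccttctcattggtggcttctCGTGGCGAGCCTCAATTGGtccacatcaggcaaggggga
Hsp90b1 (chr10:86705513-86705676, minus strand): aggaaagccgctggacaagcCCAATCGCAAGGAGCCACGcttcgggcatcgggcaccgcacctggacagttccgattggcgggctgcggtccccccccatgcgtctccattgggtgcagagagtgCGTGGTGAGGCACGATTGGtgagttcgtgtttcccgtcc
Herpud1 (chr8:94386357-94386407, plus strand): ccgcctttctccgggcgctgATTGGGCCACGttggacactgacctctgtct
The windows are built on RefSeq starts. Between the match and that start lie 79 bases for Pdia6 (start at base 17266589) and 41 bases for Herpud1 (start at base 94386429). For Hspa5 46 bases lie between its match and the RefSeq start at base 34772090, and the match is not printed because it lies inside the gene as GENCODE draws it, which begins at base 34771970. The GENCODE starts given with the genes below differ from the RefSeq starts. Hsp90b1 holds 2 matches, 1 on each strand. A match is a description of these letters, and binding was not measured.

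In all, 38717 barcodes were shared by the gene, hashtag and antibody libraries, and 22335 of them (57.7%) carried exactly 1 hashtag. After filters on genes, mitochondrial RNA and doublets, 18940 cells with 162854630 unique molecular identifiers (UMIs, counted RNA molecules) were kept, 1648 to 6306 per hashed sample, with medians of 5226 to 13048 UMIs per cell. One sample stood apart. Leukemia vehicle 2 had the weakest hashtag (a median of 87 tag counts, against 353 to 770 in the other samples), and 3009 single-tag barcodes, against 1958 under a call by tag ratio. Its median depth was the highest, and it holds 742 erythroid-like cells (median 18853 UMIs) and 1013 unnamed cells (median 14790 UMIs). Its pDC-like cells had a median of 5074 UMIs, against 4990 to 5468 in the other samples, and its cDC1-like cells 12824.5, against 11369 to 14243. Results are therefore also given without it where that changes them. Clusters were named from marker genes, with the 41 genes kept out of the clustering: 2844 pDC-like, 3073 cDC1-like, 3823 mature DC-like and 3845 cDC2-like cells. The Siglec-H antibody, which marks pDCs, had a median of 457 counts in pDC-like cells, against 240 to 247 in the other 3 classes, and the CD11c antibody had 388 counts in pDC-like cells, against 1121 to 2979. In WT panobinostat only 37 pDC-like cells were kept, and 1 of them carried 916 plasma cell marker UMIs. Plasma cell markers summed to 4610 CPM (the UMIs of a gene scaled to an equal class total) in that sample's pDC-like cells and to 12.4 to 31.5 CPM in those of the other 5.

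Levels are given as CPM of a class in 1 hashed sample. The 41 genes together took the largest share of UMIs in pDC-like cells and the smallest in mature DC-like cells. The mean share over the 6 hashed samples was 1.15 ± 0.0521% for pDC-like cells, 0.868 ± 0.119% for cDC1-like cells, 0.465 ± 0.00611% for mature DC-like cells and 0.522 ± 0.0152% for cDC2-like cells (SD, n = 6). By range, pDC-like cells (1.09 to 1.24%) lay above cDC1-like cells (0.686 to 1.04%), and mature DC-like cells (0.456 to 0.471%) below cDC2-like cells (0.503 to 0.546%), with no overlap between neighbours in that order. Of the 4 classes the SD was largest in cDC1-like cells. Outside the DC classes the mean share was 0.963 ± 0.193% in B cell-like cells (SD, n = 6), whose leading genes include the plasma cell genes Jchain and Igkc. Endothelial-like cells, 2 to 34 per sample, had 0.931 ± 0.235% (0.79 to 1.4%). Red pulp macrophage-like cells had 0.675 ± 0.115% and erythroid-like cells 0.633 ± 0.0442%. Without Xbp1, Mzb1 and Derl3, which are known for high levels in plasma cells, pDC-like cells averaged 1.10%, cDC1-like cells 0.861%, mature DC-like cells 0.462% and cDC2-like cells 0.518%. On that reduced set B cell-like cells averaged 0.82%, below cDC1-like cells, and endothelial-like cells 0.923%.

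**Figure D1:**
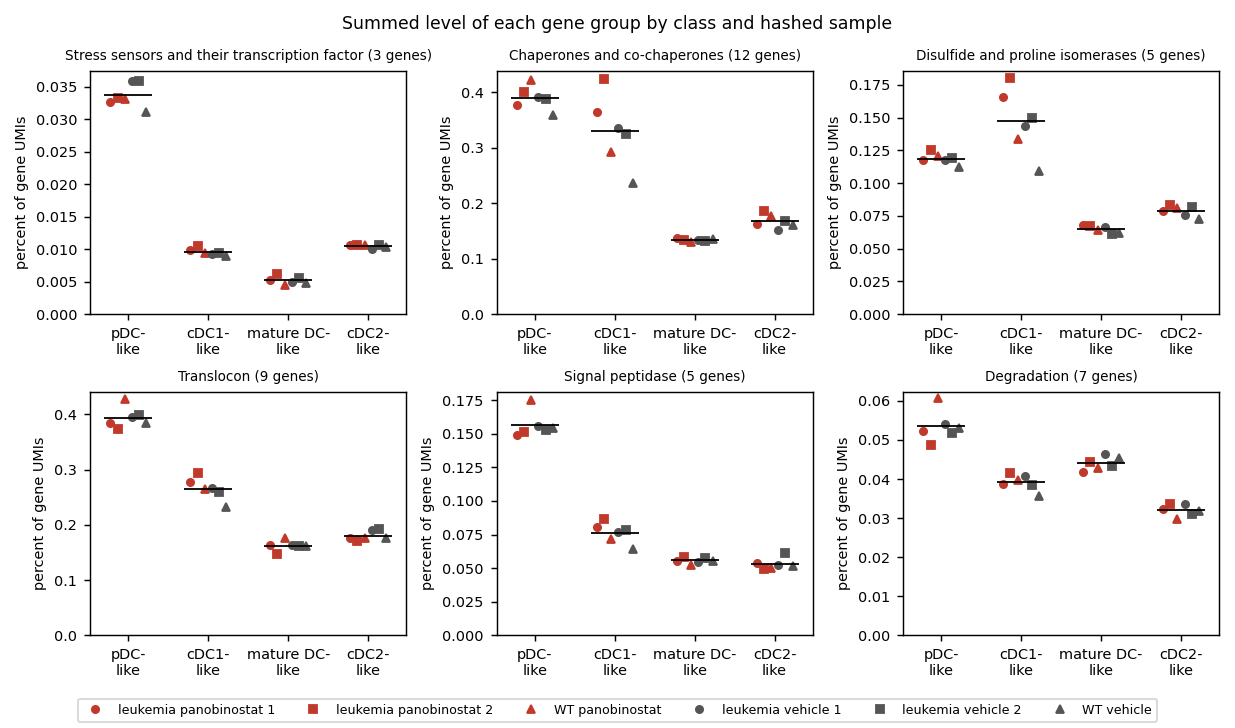
Share of gene UMIs (percent, y axis from 0) taken by each of the 6 gene groups in 4 classes (x axis), 1 point per hashed sample and a line at the mean of the 6 samples, with panobinostat in red and vehicle in grey, circles and squares for leukemia and triangles for WT. The sensor group (Xbp1, Ern1 and Atf6), the translocon and the signal peptidase stand highest in pDC-like cells. The isomerases have their highest mean in cDC1-like cells (0.147%), and degradation genes average 0.044% in mature DC-like and 0.032% in cDC2-like cells.

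The groups did not divide alike between the classes. Signal peptidase took 0.156 ± 0.00946% of UMIs in pDC-like and 0.0764 ± 0.00784% in cDC1-like cells, and the translocon 0.394 ± 0.0187% and 0.266 ± 0.02% (SD, n = 6 each). The isomerases ran the other way, with means of 0.119 ± 0.00426% in pDC-like and 0.147 ± 0.0248% in cDC1-like cells, and their ranges overlapped. By mean CPM, pDC-like cells were the highest of the 4 classes for 30 of the 41 genes, including 9 of 9 translocon and 5 of 5 signal peptidase genes, against 42.1% of all 11082 genes tested. The cDC1-like cells were highest for 8 (Hspa5, Calr, Sdf2l1, Creld2, Pdia3, Pdia6, Ppib and Derl3), against 13.9% of all genes, and mature DC-like cells for 3 (Sel1l, Derl2 and Edem1), against 18.8%. The lowest mean was in mature DC-like cells for 26 genes (38.8% of all genes), in cDC2-like cells for 12 (9.74%), in cDC1-like cells for 3 (31.6%) and in pDC-like cells for 0 (19.9%). The cDC2-like cells were highest for 0 genes of the set, against 25.3% of all genes. This order is on the CPM scale, where the median gene lay at 0.34 (log2) for pDC-like over cDC1-like cells, and on the fitted scale used below 25 of the 41 genes were above 0 in that comparison.

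**Figure D2:**
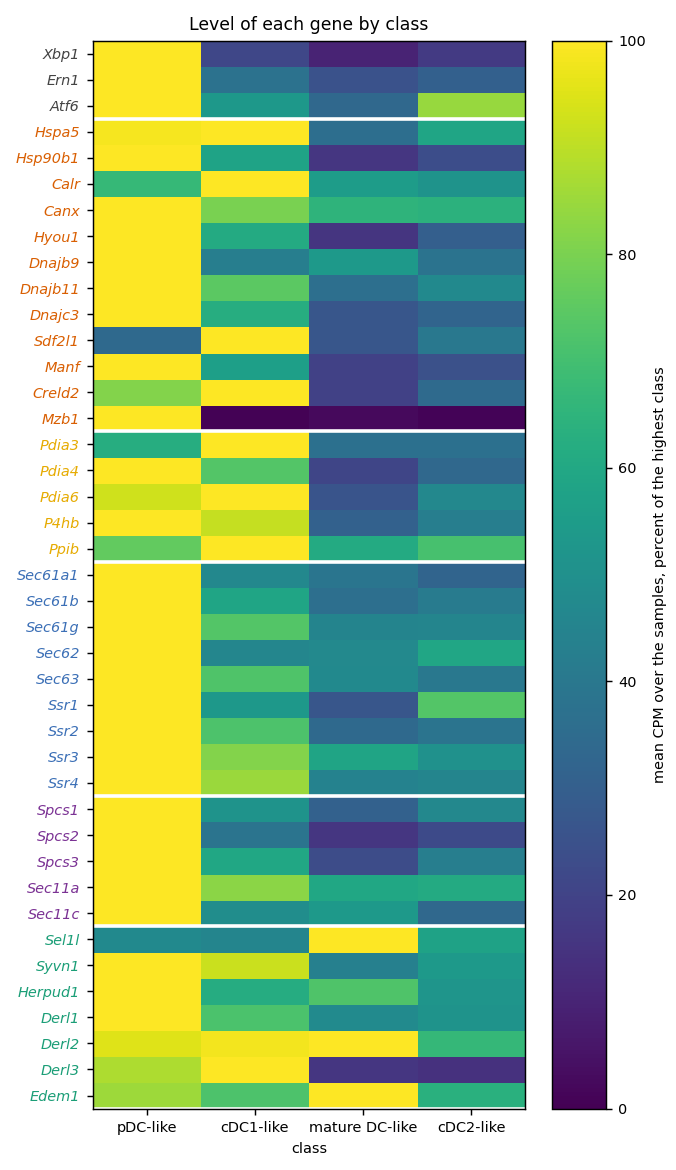
Mean CPM over 6 hashed samples of each of the 41 genes (rows, coloured by group) in 4 classes (columns), as a percent of the class where that gene is highest. The pDC-like column is at the top of the scale for 30 genes, the cDC1-like column for 8 and the mature DC-like column for 3.

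Class differences were tested with edgeR's quasi-likelihood test on summed counts with the hashed sample as a block, and called at a Benjamini-Hochberg adjusted p under 0.05 over all 11082 genes tested and a fold of 1.5 or more. All 41 genes passed the filter on low counts there. The classes were drawn from other genes of the same cells, so these tests size the differences between the classes and are no test of the classes themselves. Fitted folds use a scaling (TMM) that centres the median gene near 0, and CPM does not: with total UMIs in its place, the median of all genes lay at 0.34 (log2) for pDC-like over cDC1-like, 0.08 for pDC-like over cDC2-like, -0.29 for cDC1-like over cDC2-like and -0.33 for mature DC-like over cDC2-like cells. Folds below are therefore relative to the median gene, and no called gene changed sign under the other scaling in any of the 4 comparisons.

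Against cDC1-like cells, pDC-like cells were higher for the sensor group, Mzb1 and single genes of the translocon and the signal peptidase. They were lower for Sdf2l1, Calr, Pdia3 and Ppib. Of the 41 genes 9 rose and 5 fell, against 23.9% of all genes that rose and 24.4% that fell, so that the counts of called genes were not above the background. The median log2 fold change was 0.12 for the 41 genes and -0.01 for all genes. DESeq2 called 9 and 4. With total UMIs as the scale 18 rose and 2 fell (Pdia3 and Sdf2l1), against 37.0% and 16.3% of all genes, and 7 uncalled genes changed sign (Ssr3, Ssr4, Edem1, Sec11a, P4hb, Sel1l, Syvn1). Without leukemia vehicle 2, 10 rose and 4 fell.

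Xbp1 (ENSMUSG00000020484, chr11:5520659-5525893 in GRCm38) encodes the transcription factor of the response. It lay between 226 and 267 CPM in pDC-like cells (median 254), against 45.0 to 58.5 CPM in cDC1-like cells (median 53.0). Every pDC-like sample stood above every cDC1-like sample. The log2 fold change was 1.88 (SE 0.069; edgeR adjusted p = 2.79e-21). Reads from the 3′ end do not tell spliced from unspliced Xbp1 here. Ern1, the sensor that splices it, had 14.7 to 30.1 CPM in pDC-like cells, against 5.5 to 8.13 CPM in cDC1-like cells, again with no overlap (log2 fold change 0.85, SE 0.16). Atf6, the sensor released from the membrane by cleavage, rose by 0.63 (SE 0.096), and its ranges met: 40.2 to 78.8 CPM in pDC-like and 30.1 to 41.5 CPM in cDC1-like cells. All 3 genes of the sensor group, Xbp1 and the sensors Ern1 and Atf6, were thus called higher, which held for no other group.

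Among chaperones, Mzb1, a co-chaperone of Hsp90b1 known from B cells and pDCs, had 149 to 241 CPM in pDC-like cells, against 0.281 to 2.16 CPM in cDC1-like cells (log2 fold change 6.52, SE 0.17). In cDC1-like cells that is 1 to 32 UMIs per sample, and B cell-like cells of the same capture averaged 1170 CPM. Dnajb9, a co-chaperone that restrains Ire1α, rose by 0.89 (SE 0.093). Sdf2l1, a partner of Hspa5 in protein folding, went the other way. It had 86.0 to 136 CPM in pDC-like cells (median 94.1), against 180 to 384 CPM in cDC1-like cells (median 298), with a log2 fold change of -1.94 (SE 0.099; edgeR adjusted p = 1.31e-17). No pDC-like sample reached the lowest cDC1-like sample.

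The lectin chaperone Calr (calreticulin) fell by 0.92 on the log2 scale (SE 0.071), with 457 to 581 CPM in pDC-like cells and 516 to 969 CPM in cDC1-like cells. Its partner Pdia3 (ERp57), which also sits in the MHC class I peptide loading complex, had 236 to 280 CPM in pDC-like cells, against 298 to 529 CPM in cDC1-like cells (log2 fold change -1.01, SE 0.072; edgeR adjusted p = 7.13e-14). Pdia3 did not overlap and Calr did. Ppib, the proline isomerase cyclophilin B, fell by 0.76 (SE 0.056). Canx, the membrane-bound relative of Calr, had a log2 fold change of 0.01 (SE 0.073). The chaperone genes Hspa5 and Hsp90b1 stayed under the fold needed for a call. Hspa5 (BiP; ENSMUSG00000026864, chr2:34771970-34777547) had a log2 fold change of -0.39 (SE 0.068) and Hsp90b1 (GRP94; ENSMUSG00000020048, chr10:86690209-86705509) one of 0.43 (SE 0.074). By CPM they lay at 755 to 934 in pDC-like and 662 to 1030 in cDC1-like cells for Hspa5, and at 1020 to 1260 and 444 to 841 for Hsp90b1.

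**Figure D3:**
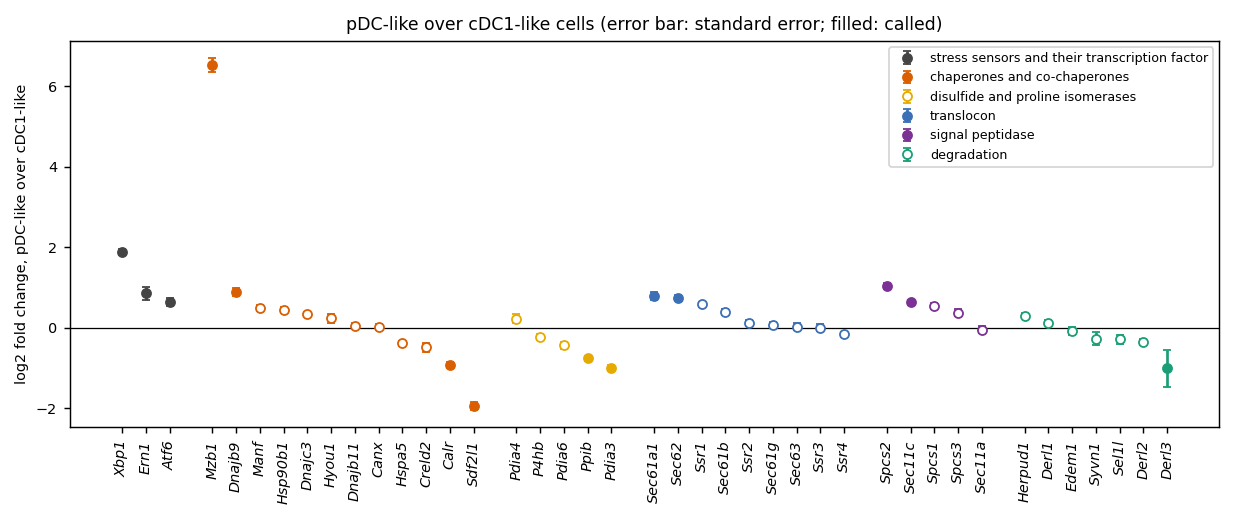
Log2 fold change of pDC-like over cDC1-like cells (y axis) for each of the 41 genes (x axis), coloured by group and sorted within it, with the standard error as bar and filled points for called genes. All 3 genes of the sensor group are filled above 0, and Calr, Sdf2l1, Ppib, Pdia3 and Derl3 are filled below 0.

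Of the entry machinery, Sec61a1, the channel subunit, rose by 0.79 (SE 0.091) and Sec62, a helper of the channel, by 0.75 (SE 0.063). The small subunit gene Sec61b (ENSMUSG00000053317, chr4:47474658-47483242) had 1170 to 1390 CPM in pDC-like cells, against 657 to 813 CPM in cDC1-like cells. Its log2 fold change of 0.39 (SE 0.064) was too small for a call. The same held for the TRAP complex genes Ssr1 to Ssr4, which lay between -0.16 and 0.58. Spcs2 (ENSMUSG00000035227, chr7:99837569-99863462), an accessory subunit of signal peptidase, had 557 to 605 CPM in pDC-like cells, against 165 to 284 CPM in cDC1-like cells (log2 fold change 1.03, SE 0.072; edgeR adjusted p = 3.51e-14). The catalytic subunit gene Sec11c rose by 0.63 (SE 0.062) and the other, Sec11a, had a value of -0.05 (SE 0.084). Sec11a shares exon sequence with Nmb on the same strand and Manf with Rbm15b, so their counts are uncertain. Among degradation genes, Derl3 fell by 1.01 (SE 0.45; edgeR adjusted p = 0.0456), on 0 to 9 UMIs per sample in pDC-like cells, and was higher in pDC-like cells in 2 of 6 samples. Herpud1 (ENSMUSG00000031770, chr8:94386438-94395377), a membrane protein of the degradation complex, had a log2 fold change of 0.30 (SE 0.064).

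Against cDC2-like cells nearly the whole set was higher in pDC-like cells. Of the 41 genes 32 rose and 0 fell, against 21.5% and 22.8% of all genes (edgeR). DESeq2 also called 32 and 0, and at an unadjusted p under 0.05 38 were higher and 2 lower. No share of all genes is given for the DESeq2 and unadjusted counts. The median log2 fold change was 1.0 for the 41 genes and -0.02 for all genes. By group 2 of 3 genes of the sensor group, 9 of 12 chaperones and 4 of 5 isomerases rose. So did 8 of 9 translocon genes, 5 of 5 signal peptidase genes and 4 of 7 degradation genes. Total UMIs as the scale gave 33 and 0, against 24.5% and 20.6% of all genes.

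Xbp1 had 226 to 267 CPM in pDC-like cells, against 37.3 to 49.3 CPM in cDC2-like cells (log2 fold change 2.45, SE 0.075; edgeR adjusted p = 2.83e-23). Spcs2 had 557 to 605 CPM, against 116 to 142 CPM in cDC2-like cells (2.05, SE 0.076). Hsp90b1, which folds Toll-like receptors and integrins, had 1020 to 1260 CPM, against 235 to 310 CPM in cDC2-like cells (1.97, SE 0.078). None of these 3 overlapped between the classes. Large folds were also seen for Mzb1 (6.43), Manf, a secreted ER stress protein (1.89), Sec61a1 (1.58), Dnajc3, a co-chaperone of Hspa5 (1.51), Sec11c (1.43), Ssr2 (1.24), Sec61b (1.14), Sec61g (1.01) and Ssr4 (1.0). Herpud1 rose by 0.79 (SE 0.066) and Hspa5 by 0.62 (SE 0.069). Sdf2l1 (-0.40), Sel1l (-0.36) and Ppib (-0.02) were the 3 genes with values below 0, none of them called.

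The cDC1-like cells also exceeded cDC2-like cells for most of the set. Here 30 of the 41 genes rose and 0 fell, against 15.7% and 18.8% of all genes (edgeR). DESeq2 called 30 and 0, and at an unadjusted p under 0.05 36 were higher and 2 lower, again with no share of all genes given for these rules. The median was 0.9 (log2), against -0.02 for all genes. With total UMIs as the scale 21 rose and 1 fell (Atf6), against 10.5% and 29.5% of all genes. All 5 isomerases rose, with 9 of 12 chaperones, 7 of 9 translocon genes and 4 of 5 signal peptidase genes. So did 4 of 7 degradation genes and Ern1 of the sensor group.

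Pdia3 had 298 to 529 CPM in cDC1-like cells, against 125 to 183 CPM in cDC2-like cells, with no overlap (log2 fold change 1.67, SE 0.072; edgeR adjusted p = 2.88e-19). Sdf2l1 rose by 1.54 (SE 0.091), Hsp90b1 by 1.54 (SE 0.076), Manf by 1.41, P4hb, the founding protein disulfide isomerase, by 1.34, Pdia6 by 1.31, Calr by 1.19, Dnajc3 by 1.18, Ssr4 by 1.16, Ssr2 by 1.13, Hspa5 by 1.01 and Sec61g by 0.93. Spcs2 (1.02) and Sec61b (0.76) were called too. Xbp1 was under the fold for a call, with 45.0 to 58.5 CPM in cDC1-like and 37.3 to 49.3 CPM in cDC2-like cells (log2 fold change 0.58, SE 0.075), as was Herpud1 (0.49, SE 0.063). Of the 9 genes with ERSE in their window 8 rose (median 1.19), and of the 23 genes with a window and no ERSE 15 rose (median 0.76). In pDC-like over cDC2-like cells these counts were 7 of 9 (median 0.87) and 17 of 23 (median 0.95). In pDC-like over cDC1-like cells 0 of the 9 rose and 2 fell (median -0.39), and 5 of the 23 rose and 3 fell (median 0.05). In mature DC-like over cDC2-like cells 0 of the 9 rose and 0 fell (median 0.0), and 5 of the 23 rose and 1 fell (median 0.15).

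In mature DC-like over cDC2-like cells 8 of the 41 genes rose and 2 fell, against 23.3% and 21.7% of all genes, so that neither count was above the background. Among the 8 were the degradation genes Sel1l, Edem1, Derl2 and Herpud1. Sel1l, the adaptor of the Hrd1 ubiquitin ligase, had 57.1 to 79.0 CPM in mature DC-like cells, against 26.3 to 42.2 CPM in cDC2-like cells (log2 fold change 1.10, SE 0.096; edgeR adjusted p = 1.2e-11). Edem1, which recognises misfolded glycoproteins, had 44.2 to 61.1 CPM, against 28.4 to 37.4 CPM in cDC2-like cells (0.96, SE 0.094). Neither overlapped between the classes.

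Derl2, a derlin of the export channel, rose by 0.91 (SE 0.073) and Herpud1 by 0.79 (SE 0.065). Outside that group Sec11c (1.0), Dnajb9 (0.81), Sec61a1 (0.65) and Mzb1 (1.61, SE 0.33, at 2.94 to 6.56 CPM in mature DC-like and 0.0 to 2.33 CPM in cDC2-like cells) rose. Ssr1 fell by 1.11 (SE 0.076) and Atf6 by 1.06 (SE 0.11). The uncalled values were -0.44 for Xbp1, -0.38 for Hspa5, -0.24 for Hsp90b1, 0.15 for Sec61b and -0.16 for Spcs2. With total UMIs as the scale 5 rose (Edem1, Derl2, Sel1l, Mzb1, Sec11c) and 9 fell (Atf6, Hspa5, Pdia4, Spcs3, Hyou1, Xbp1, Ssr1, Pdia6, Creld2), against 16.7% and 35.2% of all genes, and 9 uncalled genes changed sign, so Herpud1, Dnajb9 and Sec61a1 are higher relative to the median gene and not by the fold on that scale.

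Within the mature DC-like class the clusters were far apart. The summed share of the 41 genes, as a mean over the hashed samples, was 0.655% of UMIs in the cluster led by the cytokine gene Il12b. It was 0.399 to 0.555% in the other 6 clusters. The Il12b cluster holds 249 cells with a median of 10774 UMIs, against 3211 to 5736 UMIs in the others. It raised 6 of the 11 mature DC markers, against 7 to 11 in the others, and also 3 cDC1 and 3 red pulp macrophage markers. Summed over all its cells, Hspa5 stood at 616 CPM there and at 166 to 356 CPM in the others, and Hsp90b1 at 373 CPM and at 116 to 256 CPM. Sel1l had another order: its highest value, 107 CPM, was in a cluster with a summed share of 0.407%, against 16.2 to 56.0 CPM in the rest. These values are a description with no test.

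Cells of 1 class also differed from each other. When each cell was thinned to 2000 UMIs, pDC-like cells had a median of 22 UMIs of the 41 genes (5th to 95th percentile 13 to 33), cDC1-like cells 14 (7 to 32), mature DC-like cells 8 (4 to 16) and cDC2-like cells 10 (4 to 18). Cells deep enough for this numbered 2807 of 2844 pDC-like, 3034 of 3073 cDC1-like, 3581 of 3823 mature DC-like and 3740 of 3845 cDC2-like. The spread beyond counting error came to 16.9% of the mean for pDC-like cells, 42.3% for cDC1-like cells, 27.5% for mature DC-like cells and 28.0% for cDC2-like cells. The cDC1-like distribution has a long upper tail. The median of pDC-like cells, 22 UMIs, was reached by 53.9% of pDC-like cells (exact binomial 95% interval 52.0 to 55.7%), by 16.5% of cDC1-like (15.2 to 17.9%), 0.726% of mature DC-like (0.475 to 1.06%) and 1.47% of cDC2-like cells (1.11 to 1.91%). These intervals cover counting error alone, and 11.1% of cDC1-like cells lay within 2 UMIs of the value.

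**Figure D4:**
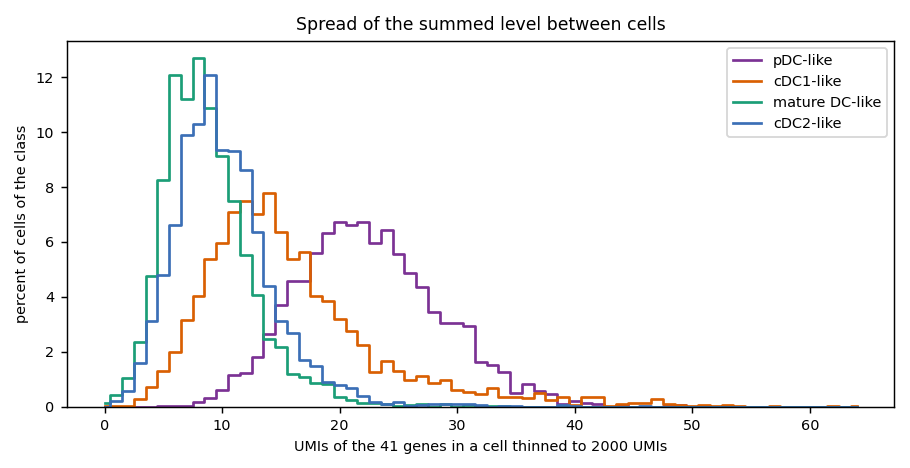
Percent of the cells of a class (y axis) by the number of UMIs of the 41 genes in a cell thinned to 2000 UMIs (x axis), 1 line per class. The pDC-like line peaks near its median of 22, the mature DC-like and cDC2-like lines near 8 and 10, and the cDC1-like line peaks near 14 with a tail that reaches 64.

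In cDC1-like cells the tail moved with the samples. The share of cells at or above 22 UMIs was 26.8%, 36.2% and 16.3% in leukemia panobinostat 1, leukemia panobinostat 2 and WT panobinostat, against 22.7%, 21.5% and 6.97% in leukemia vehicle 1, leukemia vehicle 2 and WT vehicle. Within leukemia and within WT each panobinostat sample was above each vehicle sample, and across disease states the groups overlapped. The cDC1-like class holds a cycling cluster of 538 cells, whose median was 17 UMIs and whose share at or above 22 was 24.7%. The other cluster (2535 cells) had a median of 14 and a share of 14.7%.

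Panobinostat was set against vehicle in each class with disease state as a term of the same edgeR test. In cDC1-like cells disulfide isomerases, Calr and several other chaperones were higher with panobinostat, and no gene of the set fell. Of the 40 genes that passed the filter (Mzb1 did not) 10 rose and 0 fell, against 2.36% and 0.926% of all 9825 genes tested. At an unadjusted p under 0.05 22 were higher and 0 lower, DESeq2 called 9 and 0, and 34 of the 40 had a positive fold change. No share of all genes is given for these further counts, so they add no comparison with the background. The median log2 fold change was 0.21 for the 40 genes and -0.01 for all genes. By group 3 of 5 isomerases, 5 of 11 chaperones, 1 of 9 translocon genes and 1 of 5 signal peptidase genes rose. In the sensor group 0 of 3 genes rose, and of the degradation genes 0 of 7.

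Pdia6 (ENSMUSG00000020571, chr12:17266545-17284770), a disulfide isomerase that also acts on Ire1α, had 334, 393 and 240 CPM in leukemia panobinostat 1, leukemia panobinostat 2 and WT panobinostat, against 265, 280 and 166 CPM in leukemia vehicle 1, leukemia vehicle 2 and WT vehicle. In each disease state the panobinostat samples were higher, while WT panobinostat lay below both leukemia vehicle samples. The log2 fold change was 0.46 (SE 0.071; edgeR adjusted p = 0.00221). Pdia4, another isomerase, had 65.1, 73.7 and 47.7 CPM in the panobinostat samples, against 48.2, 52.6 and 34.4 CPM in the vehicle samples, in the same order of samples (0.47, SE 0.086; adjusted p = 0.00698). Pdia3 had 474, 529 and 371 CPM with panobinostat, against 402, 425 and 298 CPM with vehicle (0.30, SE 0.064; adjusted p = 0.0166). The same ordering within each disease state held for these isomerases, with leukemia panobinostat 2 highest and WT vehicle lowest each time.

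Calr had 868, 969 and 630 CPM in the panobinostat samples, against 748, 725 and 516 CPM in the vehicle samples (log2 fold change 0.31, SE 0.059; edgeR adjusted p = 0.00841). Sdf2l1 had 337, 384 and 248 CPM with panobinostat, against 303, 292 and 180 CPM with vehicle (0.35, SE 0.068; adjusted p = 0.0102). Hspa5, the central Hsp70 chaperone of the ER, had 884, 1030 and 738 CPM with panobinostat, against 811, 738 and 662 CPM with vehicle (0.26, SE 0.067; adjusted p = 0.0404). WT panobinostat and leukemia vehicle 2 had the same Hspa5 level to 3 digits, and the other samples of each disease state kept the order. Manf had 308, 361 and 230 CPM with panobinostat, against 293, 268 and 180 CPM with vehicle (0.29, SE 0.071; adjusted p = 0.0289). Creld2, a secreted ER stress protein, had 99.6, 142 and 75.3 CPM with panobinostat, against 83.7, 104 and 46.3 CPM with vehicle (0.49, SE 0.11; adjusted p = 0.0239). Creld2 was the exception within leukemia, where leukemia panobinostat 1 lay below leukemia vehicle 2.

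Sec61g, a small subunit of the channel, was the 1 called gene whose groups did not overlap at all: 905, 976 and 830 CPM with panobinostat, against 763, 755 and 683 CPM with vehicle (log2 fold change 0.31, SE 0.057; edgeR adjusted p = 0.00752). Spcs2 had 243, 284 and 203 CPM with panobinostat, against 224, 209 and 165 CPM with vehicle (0.29, SE 0.071; adjusted p = 0.0303). Among genes that did not pass, Hsp90b1 had 700, 841 and 603 CPM with panobinostat, against 676, 713 and 444 CPM with vehicle (0.26, SE 0.071; adjusted p = 0.0589). Xbp1 had 55.5, 58.5 and 50 CPM with panobinostat, against 50.6, 58.5 and 45.0 CPM with vehicle, an overlap that left a log2 fold change of 0.11 (SE 0.086; adjusted p = 0.571). Sec61b (0.09, SE 0.057) and Herpud1 (0.13, SE 0.075) were also uncalled. Of the 9 genes with ERSE 4 rose (median log2 fold change 0.27), and of the 23 with a window and no ERSE 5 rose (median 0.13).

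**Figure D5:**
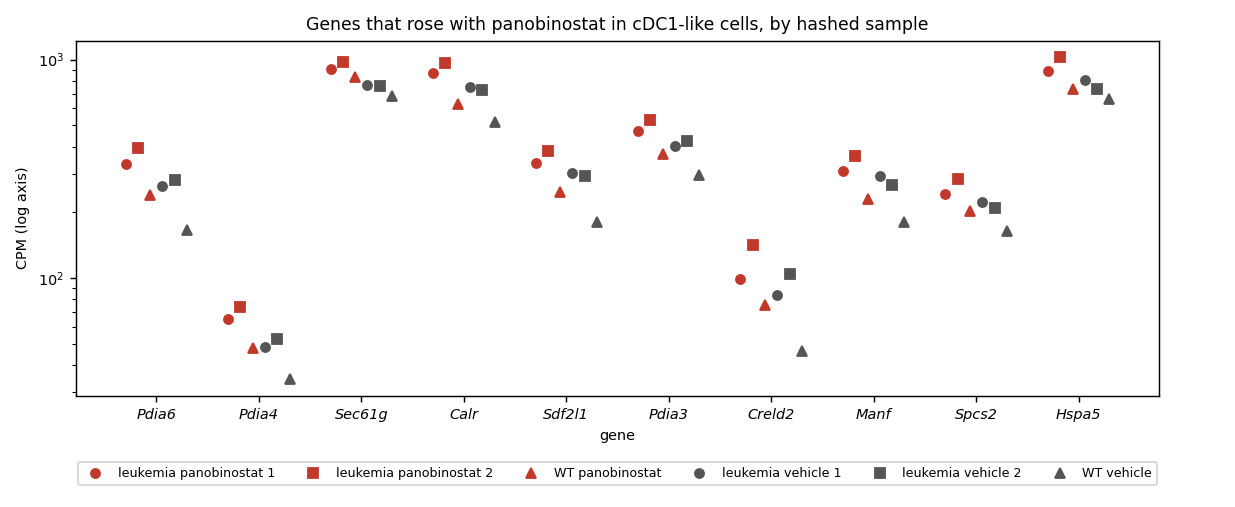
CPM (log axis) in cDC1-like cells of the 10 genes that rose with panobinostat (x axis), 1 point per hashed sample, with panobinostat in red left of vehicle in grey, circles and squares for leukemia and triangles for WT. For each gene the WT vehicle triangle is the lowest point, and for Sec61g the 3 red points lie above the 3 grey points.

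The count depended on single samples. Without leukemia vehicle 1, 0 of the 10 were called, with log2 fold changes of 0.27 to 0.44 and adjusted p of 0.0681 to 0.195 (edgeR), and without leukemia panobinostat 2 only Pdia6 was (0.41; adjusted p = 0.0416). Without leukemia vehicle 2, 7 were called and Hspa5, Spcs2 and Manf were lost. Other features of these cells moved as well. Refits were run for some of them, and beyond these their part in the result was not tested. The median depth of a cDC1-like cell was 13494, 14155 and 14243 UMIs in leukemia panobinostat 1, leukemia panobinostat 2 and WT panobinostat, against 12753.5, 12824.5 and 11369 UMIs in leukemia vehicle 1, leukemia vehicle 2 and WT vehicle, with no overlap. The 6 cycling markers summed to 515, 719 and 696 CPM in leukemia panobinostat 1, leukemia panobinostat 2 and WT panobinostat, against 448, 494 and 350 CPM in leukemia vehicle 1, leukemia vehicle 2 and WT vehicle, and 9 genes rose when the cycling cluster was left out. The 6 B cell markers summed to 24.3, 26.7 and 27.8 CPM with panobinostat, against 11.1, 18.6 and 23.1 CPM with vehicle. The 7 plasma cell markers summed to 4.29 to 4.75 CPM with panobinostat, against 4.41 to 6.19 CPM with vehicle, with 2 to 3 of the 7 at 0 UMIs in each sample, and the 6 pancreatic acinar markers to 2.0 to 2.45 CPM with panobinostat, against 1.89 to 218 CPM with vehicle. The count stayed at 10 without the cells richest in plasma or acinar markers. With each cell thinned to 2000 UMIs it was 1 (Pdia6), and the 10 genes had log2 fold changes of 0.22 to 0.59.

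In the other 3 classes 0 genes of the set rose and 0 fell with panobinostat (edgeR and DESeq2). In pDC-like cells the background at an adjusted p under 0.05 was 0.151% of all genes higher and 0.0324% lower. At an unadjusted p under 0.05, a looser rule, 0 genes of the set were higher and 1 lower. The background at adjusted p was 0.244% and 0.0637% in mature DC-like cells and 0.031% and 0.0207% in cDC2-like cells. At the unadjusted level 1 gene of the set was higher and 0 lower in mature DC-like cells. For cDC2-like cells these counts were 7 and 0. No share of all genes is given at the unadjusted level, so the counts there cannot be set against a background. The filter passed 40, 40 and 39 of the 41 genes, and the median log2 fold changes were 0.0, 0.09 and 0.07. In pDC-like cells Xbp1 averaged 249 ± 10.8 CPM with panobinostat and 252 ± 22.6 CPM with vehicle (SD, n = 3 each; log2 fold change -0.05, SE 0.082), and Hspa5 835 ± 86.1 CPM and 765 ± 9.29 CPM (0.13, SE 0.064). The pDC-like values of WT panobinostat rest on 199117 UMIs, against 14823067 for the deepest sum of a class and sample.

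In pDC-like cells the other 4 genes given for every comparison had log2 fold changes of 0.09 (Hsp90b1), -0.03 (Sec61b), -0.01 (Spcs2) and 0.13 (Herpud1). In mature DC-like cells the values were 0.22 for Xbp1, 0.10 for Hspa5, 0.11 for Hsp90b1, 0.02 for Sec61b, 0.16 for Spcs2 and -0.09 for Herpud1, and with total UMIs as the scale Sec61b changed sign. In cDC2-like cells Hspa5 averaged 508 ± 41.6 CPM with panobinostat and 446 ± 56.3 CPM with vehicle (0.25, SE 0.085), and the others lay at 0.16 (Hsp90b1), 0.09 (Xbp1), -0.12 (Sec61b), 0.02 (Spcs2) and 0.07 (Herpud1), where Spcs2 changed sign on the total UMI scale.

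A call in cDC1-like cells and none elsewhere does not show that the classes responded differently, and the difference itself was tested. None of the 41 genes passed for pDC-like minus cDC1-like cells (0.0% of 11373 genes in either direction; 0 higher and 9 lower at an unadjusted p under 0.05; median difference -0.19). None passed for mature DC-like minus cDC1-like cells (0.0%; 0 and 2; -0.11) or for cDC2-like minus cDC1-like cells (0.0528% higher and 0.00879% lower; 0 and 2; -0.09). DESeq2 called 0 in each. The percentages of all genes in this paragraph are at an adjusted p under 0.05, and none is given at the unadjusted level. The lowest edgeR adjusted p of these 3 tests were 0.305, 0.584 and 0.779. The panobinostat effect also did not pass a test of difference between leukemia and WT for any gene in any class (lowest edgeR adjusted p 0.223 to 0.737; 1 to 4 genes at an unadjusted p under 0.05). Of all genes tested 0.15% passed in pDC-like, 0.609% in cDC1-like, 0.0602% in mature DC-like and 0.0596% in cDC2-like cells. With 1 WT sample per treatment that test takes its spread from the leukemia samples.

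Leukemia was set against WT in the same fit, with 4 leukemia and 2 WT samples, so that both comparisons rest on the same libraries. In cDC1-like cells 12 of the 40 genes tested rose and 1 fell, against 4.66% and 6.12% of all genes. At an unadjusted p under 0.05 17 were higher and 1 lower, and DESeq2 called 11 and 0, with no share of all genes given for these rules. The median was 0.14 (log2) for the set and 0.01 for all genes. With total UMIs as the scale, where the median gene lay at 0.11, 18 rose and 0 fell, against 11.2% and 3.8% of all genes. By CPM all 4 leukemia samples lay above both WT samples for 22 genes and below them for 2, against 22.8% and 6.99% of all genes tested. By group 3 of 5 isomerases, 6 of 11 chaperones, 1 of 9 translocon genes and 2 of 5 signal peptidase genes rose. In the sensor group 0 of 3 genes rose, and of the degradation genes 0 of 7.

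Pdia6 had 334, 393, 265 and 280 CPM in leukemia panobinostat 1 and 2 and leukemia vehicle 1 and 2, against 240 and 166 CPM in WT panobinostat and WT vehicle (log2 fold change 0.56, SE 0.075; edgeR adjusted p = 9.62e-05). Sdf2l1 had 337, 384, 303 and 292 CPM in leukemia, against 248 and 180 CPM in WT (0.53, SE 0.073; adjusted p = 0.000106). Creld2 had 99.6, 142, 83.7 and 104 CPM in leukemia, against 75.3 and 46.3 CPM in WT (0.73, SE 0.12; adjusted p = 0.00048). In these 3 genes all 4 leukemia samples were above both WT samples.

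Hsp90b1 had 700, 841, 676 and 713 CPM in leukemia, against 603 and 444 CPM in WT (log2 fold change 0.39, SE 0.076; edgeR adjusted p = 0.00242), also without overlap. The other genes that rose were Manf (0.49), Pdia4 (0.44), Calr (0.43), Ssr2 of the TRAP complex (0.36), Pdia3 (0.35), Dnajb11, a co-chaperone of Hspa5 (0.33), Sec11a (0.32) and Spcs2 (0.28). Sec63, a channel partner that recruits Hspa5, had 53.3, 47.7, 48.5 and 44.1 CPM in leukemia, against 54.0 and 58.8 CPM in WT (-0.32, SE 0.093; adjusted p = 0.0341), and this call was lost under DESeq2, under total UMIs and without any of 4 samples. The uncalled values were 0.20 for Hspa5, 0.13 for Xbp1, 0.08 for Sec61b and -0.13 for Herpud1. Of the 9 genes with ERSE 4 rose (median 0.39), and of the 23 with a window and no ERSE 6 rose and 1 fell (median 0.12).

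Leaving out 1 sample at a time gave 8 to 13 higher genes, 11 of them without leukemia vehicle 2. In pDC-like, mature DC-like and cDC2-like cells 0 genes of the set rose and 0 fell, by edgeR and by DESeq2. The background at an adjusted p under 0.05 (edgeR) was 0.27% of all genes higher and 0.356% lower in pDC-like cells. It was 1.33% and 0.839% in mature DC-like and 0.0517% and 0.176% in cDC2-like cells. At an unadjusted p under 0.05 2 genes of the set were higher and 3 lower in pDC-like cells. These counts were 0 and 4 in mature DC-like and 1 and 0 in cDC2-like cells, with no share of all genes given at that level. Whether these classes differ from cDC1-like cells in their leukemia effect was not tested.

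Around the set, 48 genes of neighbouring steps were followed. In cDC1-like cells 2.36% of all genes rose and 0.926% fell with panobinostat, and 4.66% rose and 6.12% fell with leukemia, as background to their counts. The oligosaccharyltransferase, which adds sugar chains to proteins entering the ER, had 3 of 10 genes higher with panobinostat in cDC1-like cells (Rpn1 0.42, Krtcap2 0.33 and Ddost 0.28; list median log2 fold change 0.18) and 3 higher with leukemia (Krtcap2 0.32, Rpn1 0.29 and Ddost 0.25). Of the COPII export and retrieval genes, which carry folded proteins out of the ER and bring escaped chaperones back, 1 of 17 rose with panobinostat (Kdelr2, a receptor that retrieves ER chaperones, 0.41) and 2 with leukemia (Lman1 0.41 and Sec13 0.27). Of the signal recognition particle and its receptor 0 of 8 were called in either comparison. The PERK and ATF4 arm, which slows translation and induces amino acid genes, had 0 of 10 genes called with panobinostat. With leukemia 2 of its genes rose, both of serine synthesis (Phgdh 1.04 and Psat1 0.57), and 3 fell: Eif2ak3, which encodes Perk (-0.77), Sesn2 (-0.70) and Ppp1r15a, which restores translation (-0.70). No gene of the 4 lists was called with panobinostat in the other 3 classes. With leukemia Ppp1r15a also fell in pDC-like cells (-0.52), where 0.356% of all genes fell. Nupr1 of the same arm rose in mature DC-like cells (1.88), where 1.33% of all genes rose. These were the only calls of the lists with leukemia outside cDC1-like cells.

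The same lists were read between classes. In pDC-like over cDC2-like cells, where 21.5% of all genes rose and 22.8% fell, 9 of 10 oligosaccharyltransferase genes rose (Krtcap2 1.70, Dad1 1.07 and Tmem258 1.04; list median 0.95), as did 4 of 8 signal recognition genes (Srprb 1.26, Srpr 0.90 and Srp19 0.63). Of the COPII list 11 of 17 rose, led by Sec24d (4.89), a cargo adaptor of the coat, with Tmed10 (1.41) and Tmed2 (1.23), and Sec24b fell by 0.60. The PERK and ATF4 list was split, with 2 higher and 2 lower. In pDC-like over cDC1-like cells, where 23.9% of all genes rose and 24.4% fell, it had 5 higher, among them Phgdh (2.02), Sesn2 (1.66) and Cebpb (1.55), and 2 lower, Nupr1 (-1.79) and Psat1 (-1.38). There the oligosaccharyltransferase had 2 of 10 higher (Stt3b 1.12 and Krtcap2 1.01), the signal recognition list 1 of 8 (Srprb 0.79) and the COPII list 3 of 17 (Sec24d 2.33, Kdelr1 0.87 and Tmed2 0.75), none of them above the background.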

How the data were processed

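Per the labels, the gene, hashtag and antibody libraries of 1 capture were made with 10x 3′ v3 chemistry. The authors deposited 1 matrix of unnormalized UMI counts for genes and tags, as its header shows. The submitters' processing notes name Cell Ranger 3.1.0, Seurat 3.1.0, mm10 and GRCm38, without their roles.

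The members, the lists and the tests were chosen with earlier results of these data known. A barcode needed exactly 1 hashtag above the 0.99 quantile of a negative binomial fit, 500 genes, at most 10% mitochondrial UMIs and a doublet score (a rewritten Scrublet score) under 0.5, which removed 10.1% of single-tag barcodes. Clustering used 2000 variable genes without the members, 30 components, 15 neighbours and Leiden resolution 1 (scanpy 1.11.5, leidenalg 0.10.2). A class name needed 3 markers at a log2 fold of 1 and 20 CPM, and a mean log2 fold of 0.25 over its marker list. No other list could have more genes among the top 10 of the cluster. A cluster with a median depth under 0.3333 of its samples' medians and no marker among those 10 also stayed unnamed. The unnamed clusters held 3209 cells (16.9%), which were left out of the main comparisons. UMIs were summed per class and hashed sample (20 cells or more) and tested with edgeR 4.0.16 (TMM, quasi-likelihood, filterByExpr, R 4.3.3), with DESeq2 1.42.0 as an alternative. The scripts were checked on simulated counts. Every member may be named, and each comparison names its called members, up to 12 per direction with the smallest adjusted p, and always Xbp1, Hspa5, Hsp90b1, Sec61b, Spcs2 and Herpud1, and up to 3 called genes per pathway list. Other members are named for their role, after their values were seen. The pDC median as a limit for single cells and 3 of 21 alternatives were also chosen after seeing the data. Positions come from the GENCODE annotation of GRCm38 and promoter windows from RefSeq. The precision of a level is set by its UMI count, 199117 to 14823067 per sample over the 4 DC classes (127502 for the smallest B cell-like sum), and intervals cover counting error only.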

Additional observations from a re-analysis of the deposited data

Results flagged for a closer look

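In each class the gap between the lowest or highest of the 6 hashed samples and its nearest neighbour was divided by the range of all 6. This was done for every gene of the set and every group sum (192 tests), and a ratio above 0.625 was marked. Chance marks about 1 in 20 such tests, and 20 were marked: 11 in pDC-like, 6 in cDC2-like, 3 in mature DC-like and 0 in cDC1-like cells. Of the 11 in pDC-like cells 10 concern WT panobinostat, the sample with 37 cells, 1 of them rich in plasma cell RNA.

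In that sample the signal peptidase sum was 0.175% of UMIs (0.149 to 0.156% in the other 5 samples), Hspa5 934 CPM (755 to 793), Ssr4 804 CPM (601 to 626), Spcs1 296 CPM (186 to 202), Sdf2l1 136 CPM (86.0 to 96.1), Hyou1 50.2 CPM (23.8 to 29.4), Ern1 30.1 CPM (14.7 to 18.4) and Derl3 10.0 CPM (0.0 to 1.73), all high. Atf6 was low at 40.2 CPM (67.7 to 78.8), as was Creld2 at 50.2 CPM (72.7 to 85.6). Without the 1 plasma-rich cell the values were 0.169% for the signal peptidase, 963 CPM for Hspa5, 804 CPM for Ssr4, 265 CPM for Spcs1, 127 CPM for Sdf2l1, 52.9 CPM for Hyou1, 31.8 CPM for Ern1, 5.29 CPM for Derl3, 37.0 CPM for Atf6 and 52.9 CPM for Creld2. Jchain, a plasma cell gene, was then at 0 UMIs, against 1150 CPM with that cell. Ern1 rests on 6 UMIs and Derl3 on 2 there, so these levels are not precise at this depth. The remaining pDC-like value was Ppib in leukemia panobinostat 2, 499 CPM (425 to 447 in the others).

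In cDC2-like cells a single sample lay far from the rest for Dnajc3 in leukemia panobinostat 2 (75.7 CPM, others 62.9 to 67.2), P4hb in WT panobinostat (73.2 CPM, others 55.8 to 62.3), Sel1l in WT panobinostat (26.3 CPM, others 36.5 to 42.2), Ssr4 in leukemia vehicle 1 (335 CPM, others 280 to 290), and Sec61a1 (45.5 CPM, others 30 to 34.7) and Spcs1 (128 CPM, others 87.0 to 95.6) in leukemia vehicle 2. In mature DC-like cells this held for Sdf2l1 (84.8 CPM, others 74.9 to 77.6) and Pdia4 (23.1 CPM, others 12.6 to 14.6) in leukemia vehicle 1 and for Sec11a in leukemia vehicle 2 (106 CPM, others 69.1 to 75.8). Their sources were not tested. No gene of the set passed a test of a different panobinostat effect in leukemia and WT.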

How the results depend on the processing

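No called result changed its direction under the 21 alternatives (18 planned, 3 added after seeing the data). Of the genes called in a comparison, 64 of 86 calls between classes, 5 of 13 between leukemia and WT and 0 of 10 between panobinostat and vehicle held in every alternative. With cells thinned to equal depth, 1 gene rose with panobinostat in cDC1-like cells (Pdia6, 0.51; the 10 genes had log2 fold changes of 0.22 to 0.59), 6 rose with leukemia there, and 5 fell in mature DC-like over cDC2-like cells. Leaving out 1 sample gave 0 to 13 genes higher with panobinostat in cDC1-like cells (0 without leukemia vehicle 1, 1 without leukemia panobinostat 2), 8 to 13 higher and 0 to 1 lower with leukemia there, 8 to 10 higher and 4 to 6 lower in pDC-like over cDC1-like cells, and 2 to 4 lower in mature DC-like over cDC2-like cells (4 without WT vehicle). The 1 gene lower with leukemia (Sec63) became 0 under DESeq2, thinning, the ratio hashtag call and total UMIs. With no filter 1 gene rose with panobinostat in cDC2-like cells. Total UMIs as the scale gave 18 higher and 2 lower in pDC-like over cDC1-like cells, 1 lower in cDC1-like over cDC2-like cells (also 1 with doublets kept), and 5 higher and 9 lower in mature DC-like over cDC2-like cells. The last count was 6 at resolution 0.5, 10 with the ratio call, 10 with doublets kept and 9 with the members in the clustering. The summed share in pDC-like cells was 1.08% with doublets kept. In mature DC-like cells it was 0.44% after thinning, 0.452% at resolution 0.5, 0.435% with the ratio call, 0.436% with doublets, 0.472% at 20% mitochondrial UMIs and 0.435% with the members in the clustering. In cDC2-like cells it was 0.542% with unnamed clusters added, 0.55% with doublets and 0.549% at 20% mitochondrial UMIs. The causes were not tested. Samples of the same number did not deviate together in every class (correlations -0.017 to 0.226), so the numbers were not taken to pair them, and a fit with the replicate block had 7 genes higher with panobinostat in cDC1-like cells. Among the 4 DC classes the fewest UMIs, 199117, were in pDC-like cells of WT panobinostat.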
